A study of Mus musculus with 24 samples.

Results

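The major urinary protein (Mup) genes and pseudogenes were taken as every row of the mouse liver expression table whose symbol is Mup followed by a digit or Mup-ps, which gave 49 of 34945 named genes. These members comprise 22 protein-coding genes and 27 pseudogenes. They were followed as single genes and as their summed share of all transcripts, in TPM, the transcript level corrected for length and scaled to the same total in every library.

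Major urinary proteins are small secreted lipocalins that the liver releases into the blood and the kidney passes into urine, where they carry volatile pheromones and act as scent signals themselves. The liver genes are known to be transcribed more in male than in female mice, under the pulsed growth hormone signal that acts through STAT5B, and to respond to thyroid hormone, glucocorticoids and feeding state. Most of the coding genes are recent duplicates of each other, called the central or class B genes, and a smaller number at the edges of the cluster, called class A, are more divergent.

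Livers were compared in 8 groups of 3 libraries, formed by 4 genotypes on a high-fat diet (HFD) or a regular diet (RD) given for 3 weeks, and all mice were fasted for 4 h. LFPKO livers lacked both FoxO1 and PPARα (FoxO1-/-; PPARα-/-), LFKO livers lacked FoxO1 (FoxO1-/-), LPKO livers lacked PPARα (PPARα-/-), and WT livers carried the unrecombined floxed alleles (FoxO1lox/lox; PPARαlox/lox). Deletion was constitutive and driven by Albumin-Cre, a transgene active in hepatocytes, and no Cre is named for the WT groups. FoxO1 and PPARα are transcription factors of the fasted liver, the first restrained by insulin and the second a nuclear receptor for fatty acids. The labels do not say that the 3 libraries of a group came from separate mice, so the p-values describe spread among libraries that may be technical, and sex and age are not stated. In whole liver, fewer cells of a type and less RNA per cell cannot be told apart.

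The check of the deleted gene came first. Foxo1 averaged 0.300 ± 0.0481 TPM in HFD LFPKO, 0.368 ± 0.0301 TPM in HFD LFKO, 8.28 ± 2.40 TPM in HFD LPKO and 4.77 ± 0.729 TPM in HFD WT livers (SD, n = 3 each), and 0.368 ± 0.0442, 0.400 ± 0.0883, 4.41 ± 0.263 and 4.31 ± 0.206 TPM in RD LFPKO, RD LFKO, RD LPKO and RD WT livers. Ppara was not lower in the LPKO or LFPKO groups than in WT, at 60.3 to 80.9 TPM in the 4 groups labelled as lacking PPARα and 43.0 to 53.1 TPM in the WT groups (group means), and a gene-level value does not check the loss of a part of the transcript. The Y-linked genes Ddx3y, Eif2s3y, Kdm5d and Uty were above 0 in all 24 libraries, with lowest values of 13.4, 21.8, 3.12 and 2.97 TPM. Among markers of salivary and lacrimal glands, which also make Mup RNA, Bpifa2, Smr3a and Prol1 were listed at 0 in every library, while Amy1, which liver also expresses, lay between 129 and 238 TPM. The summed hepatocyte markers (Alb, Apoa1, Ttr, Tat, Cps1, Serpina1a, Apob and Fga, 8 of 8 in the table) ranged from 40904 to 94267 TPM. Summed markers of other liver cells were far lower, at 45.8 to 173 TPM for Kupffer cells, 22.7 to 49.9 TPM for endothelial cells, 38.7 to 137 TPM for stellate cells, 25.3 to 86.6 TPM for cholangiocytes and 0.772 to 3.88 TPM for lymphocytes.

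Of the 49 members, 48 lie on chromosome 4 between 59956804 and 62150863 (GRCm38, GENCODE M21 annotation matched by symbol), a stretch of 2.19 Mb, and the processed pseudogene Mup-ps22 lies on chromosome 11. Along the cluster 21 of the 22 coding genes are on the minus strand, with Mup6 the exception, whereas 21 of the 27 pseudogenes are on the plus strand. At the edges lie Mup4 and Mup6 on the low side and Mup20 and Mup3 on the high side, with Mup21 last. The longest transcripts of the coding genes were aligned in all 231 pairs. A set of 14 genes (Mup7 to Mup19 and Mup22) were 98.3% to 99.8% identical to each other, with a median of 99.0%, and Mup10 and Mup22 differed at 2 of 858 aligned bases. Mup1 (98.38% to 99.68%) and Mup2 (98.71% to 99.65%) were as close to this set, which was defined by the share of unique sequence given below and not by identity. Mup3 was at most 87.2%, Mup21 at most 87.7% and Mup20 at most 91.1% identical to any gene of the set.

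Such similarity limits what a read can tell. Of the 31-base words in its annotated transcripts, the word length that the quantification program kallisto uses by default, Mup22, Mup19 and Mup15 had none found in no other gene. Unique words made up 9.98% in Mup7, 10.8% in Mup14, 7.92% in Mup12 and 16.8% in Mup10. By contrast they made up 69.9% in Mup3, 66.2% in Mup21, 63.0% in Mup5, 35.5% in Mup20 and 29.8% in Mup1. Levels of Mup3, Mup21 and Mup20 therefore rest in part on sequence of their own. The Mup1 words were pooled over 4 annotated transcripts, and its longest transcript differs from that of Mup12 at 3 of 925 aligned bases. How well Mup1 reads can be told from those of its close copies was not tested. The division of reads among the 14 near-identical genes is uncertain, for which reason their sum is also given.

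**Figure D1:**
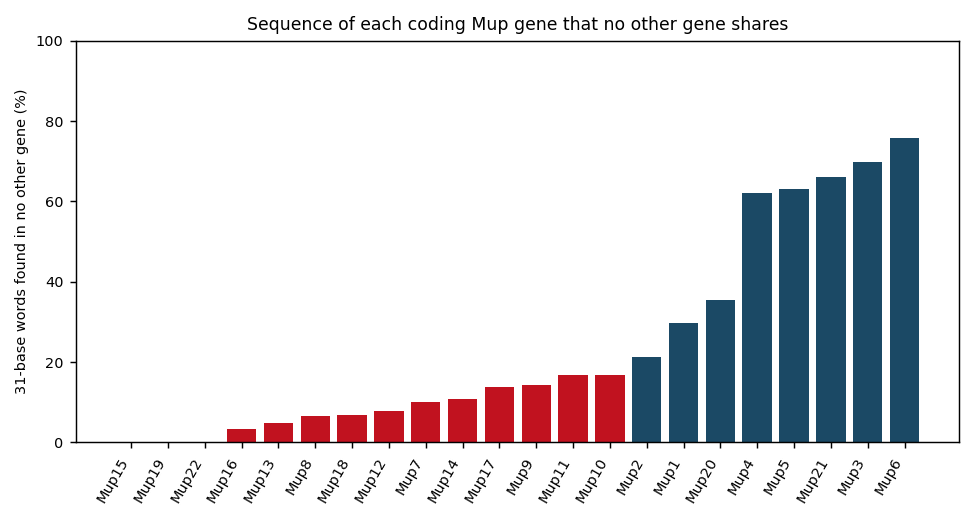
Percentage of each coding Mup gene's 31-base words (y axis, 0 to 100%) that occur in no other gene of the annotation. Red bars mark the 14 genes under 20%, blue bars the 8 others. Mup15, Mup19 and Mup22 stand at 0 and Mup6 at 75.7%.

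The members also differ upstream of their starts, and the following stretches are shown because they let the divergent genes be set beside the near-identical ones. Of the 22 coding genes, 14 had a promoter window of 300 bases (250 before and 50 after the start) in the RefSeq table for GRCm38.p6. None was listed for Mup1, Mup5, Mup8, Mup12, Mup13, Mup16, Mup20 and Mup22. The TATA-box motif, spelled TATATAA here, was present on either strand in 13 of these 14 windows, against 3.24% of all 32851 promoters in the table, and was not in the Mup7 window. Its first base lay between 31 bases before the annotated start (Mup9 and Mup19) and 12 bases after it (Mup14), so the annotated starts are not aligned with each other. The 120 bases that end with that motif are printed 5′ to 3′ on the gene's own minus strand, with the motif in capitals, for Mup3 (chr4:62087322-62087441), Mup21 (chr4:62150843-62150962), Mup18 (chr4:61674116-61674235), Mup14 (chr4:61303980-61304099), Mup10 (chr4:60582179-60582298), Mup11 (chr4:60662391-60662510) and Mup19 (chr4:61782249-61782368).
Mup3: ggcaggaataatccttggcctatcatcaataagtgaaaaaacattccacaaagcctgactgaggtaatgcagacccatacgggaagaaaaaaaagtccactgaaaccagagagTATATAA
Mup21: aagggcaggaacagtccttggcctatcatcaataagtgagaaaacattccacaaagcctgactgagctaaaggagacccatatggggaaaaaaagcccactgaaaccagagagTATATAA
Mup18: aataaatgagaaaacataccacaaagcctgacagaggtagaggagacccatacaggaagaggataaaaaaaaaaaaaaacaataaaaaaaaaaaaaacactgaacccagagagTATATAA
Mup14: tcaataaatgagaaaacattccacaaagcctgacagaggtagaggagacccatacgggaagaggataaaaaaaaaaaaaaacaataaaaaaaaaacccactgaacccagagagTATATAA
Mup10: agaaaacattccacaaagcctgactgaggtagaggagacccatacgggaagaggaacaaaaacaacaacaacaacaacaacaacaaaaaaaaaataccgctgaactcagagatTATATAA
Mup11: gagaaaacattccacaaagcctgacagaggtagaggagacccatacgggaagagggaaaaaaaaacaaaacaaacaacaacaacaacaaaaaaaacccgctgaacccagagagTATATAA
Mup19: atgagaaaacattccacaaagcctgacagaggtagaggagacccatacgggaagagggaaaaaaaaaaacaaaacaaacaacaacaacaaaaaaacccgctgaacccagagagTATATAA
Mup15 holds the same 120 bases as Mup19. The lines differ in a tract of A and C between their left part and the TATA box: the longest run of only A and C on the gene's strand in the 300-base window was 8 bases in Mup3, 7 in Mup21, 18 in Mup18 and Mup14, 40 in Mup10, Mup15 and Mup19, and 42 in Mup11. A run of at least 30 was present in 7 of the 14 Mup windows (Mup2, Mup9, Mup10, Mup11, Mup15, Mup17 and Mup19) and in 0.314% of all promoters. The FOXO-type motif GTAAACA, the STAT-type motif TTCNNNGAA and the nuclear receptor repeat AGGTCANAGGTCA, none of which contains another, were searched on both strands and were in none of the 14 windows, against 3.65%, 8.30% and 0.0396% of all promoters. At such low shares and with windows this alike, absence from 14 of them cannot show that the Mup genes lack such sites.

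In these libraries the cluster spanned nearly the whole range of expression. Over the 24 libraries Mup22 had the highest mean at 38859 TPM, followed by Mup7 (25906 TPM), Mup19 (22503 TPM), Mup3 (12997 TPM), Mup11 (12743 TPM) and Mup20 (11713 TPM), and 13 members averaged at least 1000 TPM. Mup20 encodes darcin, the male urinary protein that female mice are drawn to. Mup5, which is known mainly from glands of the head, averaged 4.18 TPM, and Mup4 and Mup6 averaged 0.127 and 0.866 TPM. The 32 members with a mean of at least 1 TPM were tested: 20 coding genes and 12 pseudogenes. The other 17 were Mup4, Mup6 and 15 pseudogenes, with means of at most 0.881 TPM, and Mup-ps26, Mup-ps28 and Mup-ps29 were at 0 in every library. All pseudogenes together made up 67.9 to 334 TPM per library, 0.0620% to 0.243% of the Mup sum.

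The members varied to very different degrees. Mup22 was the steadiest of the abundant ones, with a highest library 1.74 times its lowest, and Mup3 followed with 2.34 times. For Mup20 the same ratio was 13.9, for Mup21 69.5, for Mup7 222, for Mup17 1056 and for Mup15 1200. Mup22 shares every 31-base word with other genes, so its steadiness is that of the reads assigned to it; the sum of Mup22 and its closest copy Mup10 ranged from 29279 to 50619.6 TPM.

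As a whole, the members took between 5.06% and 30.7% of the listed TPM of a library. Their share was 28.5, 23.8 and 20.3% in the HFD LFPKO libraries, 17.7, 10.9 and 6.52% in HFD LFKO, 13.4, 12.5 and 26.1% in HFD LPKO and 20.1, 30.7 and 24.6% in HFD WT livers. On the regular diet it was 13.1, 12.6 and 14% in RD LFPKO, 6.88, 5.06 and 6.02% in RD LFKO, 10.4, 14.4 and 10.5% in RD LPKO and 11.7, 8.01 and 8.62% in RD WT livers. All 3 RD LFKO libraries were below all other RD libraries, and the HFD LFKO libraries, which were far apart, were all below the lowest HFD WT library. Group means were 24.2 ± 4.13%, 11.7 ± 5.66%, 17.3 ± 7.58% and 25.1 ± 5.33% (SD, n = 3) in HFD LFPKO, LFKO, LPKO and WT livers, and 13.2 ± 0.696%, 5.99 ± 0.911%, 11.8 ± 2.32% and 9.45 ± 1.99% in the same genotypes on the regular diet. The share is a score over the members and is given without a test.

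**Figure D2:**
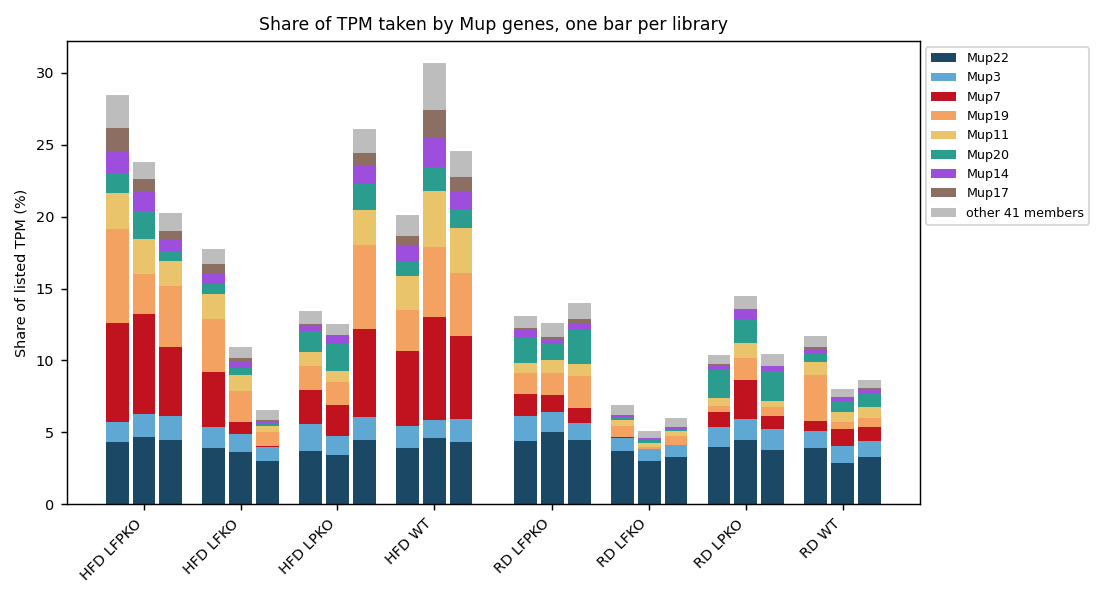
Share of listed TPM (y axis, %) taken by the Mup genes in each library (1 bar each, replicates 1 to 3 from left to right in a group), split into the 8 members named in the legend and the other 41. Mup22 and Mup3 together hold 37898.5 to 63085.9 TPM in every bar, and the red Mup7 part is under 1% of the Mup sum in the RD LFKO bars.

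The sum over the 14 near-identical genes does not depend on how reads were divided among them, but it does depend on their division from Mup1 and Mup2. This sum followed the same order of groups as the share within each diet. It was 203419 ± 37012 TPM in HFD LFPKO, 97786 ± 49817 TPM in HFD LFKO, 134353 ± 71926 TPM in HFD LPKO and 210999 ± 45253 TPM in HFD WT livers. In RD LFPKO, LFKO, LPKO and WT livers it was 98048 ± 4558, 48682 ± 8955, 81522 ± 23756 and 72491 ± 20979 TPM. The named rows of a library summed to 956785 to 993524 TPM, and the rest of each library's TPM total moved with the Mup share: it was 4.31% in the HFD WT library with the highest share and 0.628% in the RD LFKO library with the lowest. What that remainder holds was not tested.

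The part of the Mup sum assigned to single members changed with the total. Mup22 and Mup7 are among the 14 genes whose division of reads is uncertain, so their parts are uncertain too. Mup22 was 55.8 ± 3.29% of the Mup sum in RD LFKO livers, against 36.0 ± 2.38% in RD WT livers, and 17.4 ± 2.24% in HFD WT livers. Its mean TPM was 33045 in RD LFKO and 33431 in RD WT livers, so its larger part in RD LFKO livers went with a smaller Mup sum. Mup7 was 0.769 ± 0.143% of the sum in RD LFKO livers, against 10.9 ± 4.79% in RD WT livers, and 24.3 ± 1.49% in HFD WT livers.

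**Figure D3:**
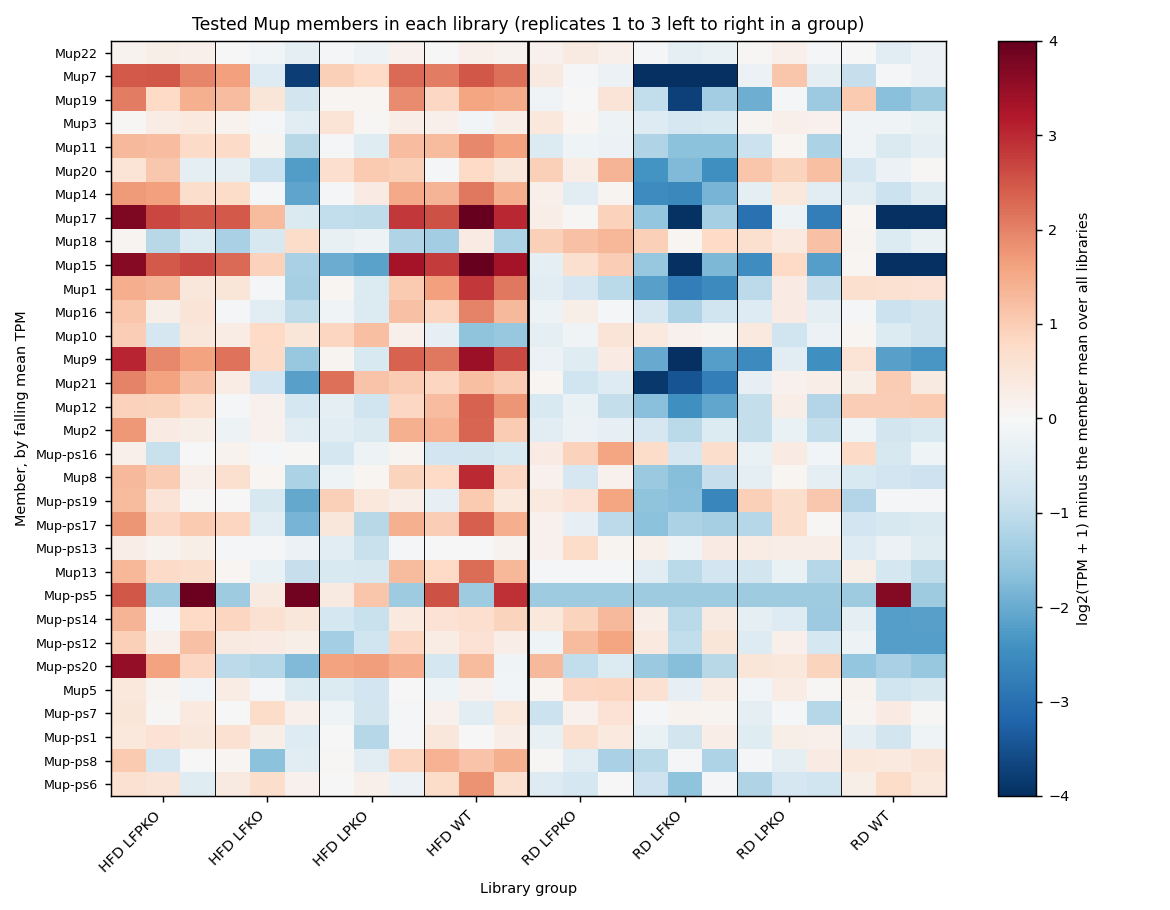
Level of the 32 tested members (rows, highest mean TPM at the top) in each library (columns, grouped), as log2(TPM + 1) minus the member's mean over the 24 libraries (colour, capped at 4 in either direction). The RD LFKO columns are blue for Mup7, Mup20, Mup14, Mup1, Mup21 and Mup12 and near white for Mup22 and Mup3, and the third HFD LFKO column is bluer than the other 2 of its group for Mup7, Mup20, Mup14 and Mup21.

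Loss of FoxO1 on the regular diet was compared first. In RD LFKO livers 5 of the 32 tested members were lower than in RD WT livers and none was higher (limma on log2(TPM + 1), adjusted p under 0.05 over 10551 genes, as in all comparisons that follow, where a signed value in brackets is a log2 fold change), against 1.67% of all genes called (1.07% higher and 0.597% lower). Mup7 had 545, 309 and 536 TPM in RD LFKO livers, against 6465, 11850.2 and 10299 TPM in RD WT livers. Its log2 fold change was -4.36 ± 0.79 (SE), adjusted p = 0.00471. Every RD LFKO library lay more than 10 times below the lowest RD WT library. The divergent Mup21 had 34.6, 46.5 and 75.5 TPM in RD LFKO livers, against 619, 1053 and 663 TPM in RD WT livers (-3.90 ± 0.44 (SE), adjusted p = 3.2e-05), again without overlap.

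Mup20, the darcin gene, had 1726, 2669 and 1676 TPM in RD LFKO livers, against 5720.2, 7799 and 9511 TPM in RD WT livers (-1.93 ± 0.39 (SE), adjusted p = 0.0124). The groups did not overlap, but the call was lost without RD LFKO replicate 1, RD LFKO replicate 3 or RD WT replicate 3. Mup1, whose protein circulates in blood and has been tied to glucose and lipid metabolism in mice, had 183, 120.4 and 140.3 TPM in RD LFKO livers, against 1293, 1256 and 1230.3 TPM in RD WT livers (-3.10 ± 0.45 (SE), adjusted p = 0.000561). Mup12, whose transcript differs from that of Mup1 at 3 of 925 aligned bases, had 69.2, 39.5 and 51.4 TPM in RD LFKO livers, against 439, 444 and 461 TPM in RD WT livers (-3.08 ± 0.38 (SE), adjusted p = 0.000100). Both were nearly constant among the RD WT libraries, so the difference was many times the spread there.

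The most abundant stable members did not pass: Mup22 had 36894, 29994 and 32246 TPM in RD LFKO livers, against 38934, 28624 and 32736 TPM in RD WT livers, which overlapped. Mup3 had 8919, 7905 and 8355 TPM in RD LFKO livers, against 11584, 11433 and 10462 TPM in RD WT livers, a non-overlapping difference whose adjusted p was 0.234. The median log2 fold change of the 32 members was -0.38, against 0.03 over all genes. With only the 2 compared groups in the fit 8 members were called, and 431 of all genes. The summed hepatocyte markers were 88496 to 94267 TPM in RD LFKO livers, against 69436 to 71002 TPM in RD WT livers, and their part in the result was not tested; singly, limma called 0 of the 8, with 1 at an unadjusted p under 0.05, and 1 of 8 Kupffer cell markers was called lower.

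**Figure D4:**
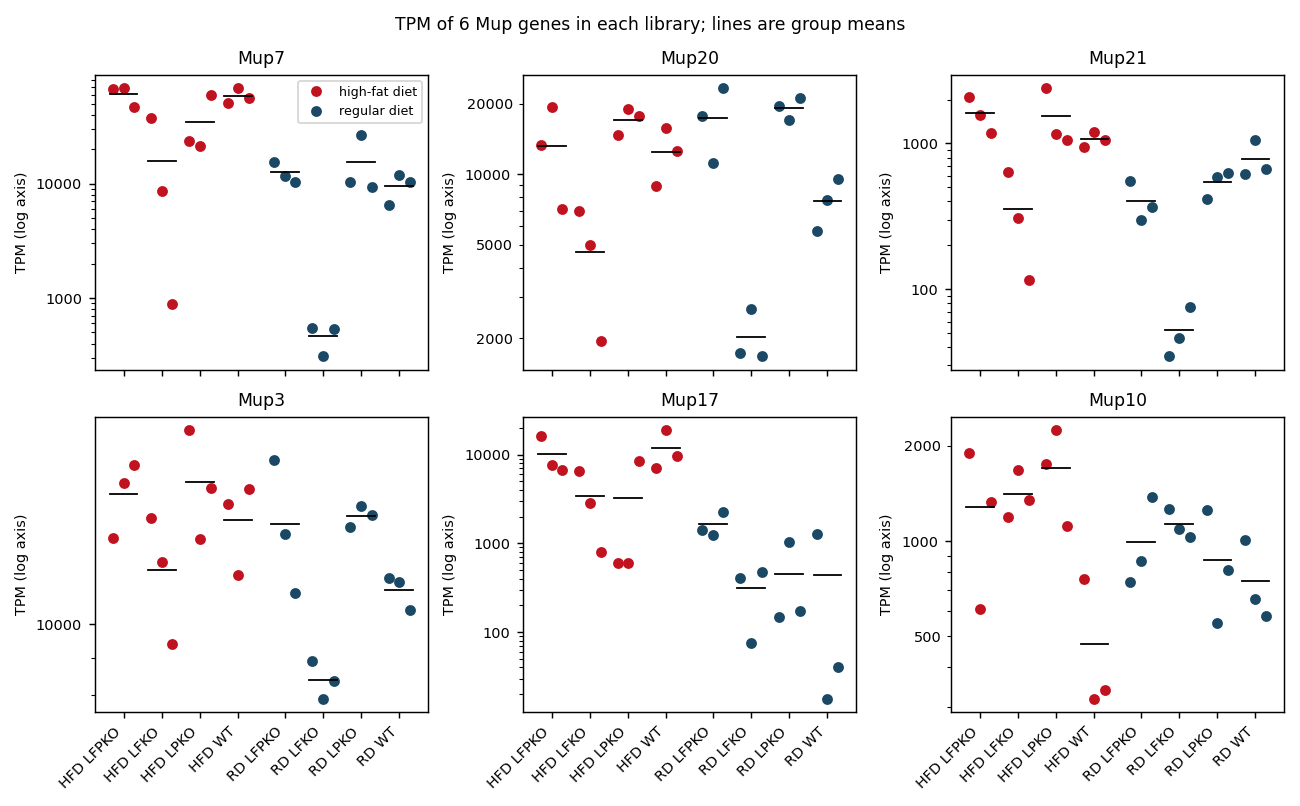
TPM (log axis) of 6 Mup genes in each of the 24 libraries, with high-fat diet groups in red and regular diet groups in blue; black lines are group means. Mup7 and Mup21 are lowest in the 3 RD LFKO libraries, Mup17 spreads widely among the RD WT libraries, and Mup10 is lowest in 2 of the HFD WT libraries.

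PPARα loss alone on the regular diet gave calls in both directions. In RD LPKO livers 3 members were higher and 2 lower than in RD WT livers, against 5.85% of all genes called (3.52% higher and 2.33% lower). Mup20 had 19558, 17004 and 21059 TPM in RD LPKO livers, against 5720.2, 7799 and 9511 TPM in RD WT livers (1.35 ± 0.39 (SE), adjusted p = 0.0471), and all 3 RD LPKO libraries were higher. That Mup20 call was lost on leaving out any single library of the 2 groups. It was also lost with a pseudocount of 0.1, no filter, median-of-ratios scaling or the replicate block. Mup12 was the coding gene that was lower, with 114, 269.6 and 97.4 TPM in RD LPKO livers, against 439, 444 and 461 TPM in RD WT livers (-1.63 ± 0.38 (SE), adjusted p = 0.0129). The pseudogenes Mup-ps20 (2.05) and Mup-ps13 (0.68) were higher and Mup-ps6 (-1.35) was lower. These pseudogene calls were lost in 7 of 13, 5 of 13 and 6 of 12 alternatives, in that order. The number of calls was 0 without RD LPKO replicate 1 or RD LPKO replicate 3, 1 without RD WT replicate 3 and 2 without RD LPKO replicate 2, RD WT replicate 1 or RD WT replicate 2.

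Without both factors, RD LFPKO livers had 5 members higher and 1 lower than RD WT livers, against 7.45% of all genes called (4% higher and 3.45% lower). Mup22 had 43603, 49754 and 44356 TPM in RD LFPKO livers, against 38934, 28624 and 32736 TPM in RD WT livers (0.47 ± 0.14 (SE), adjusted p = 0.0417), a small non-overlapping difference that did not pass without any 1 of 5 of the 6 libraries. The Mup22 call was also lost with no filter, after median-of-ratios scaling, with the replicate block and with only the compared groups in the fit. Mup5 (1.0) and the pseudogenes Mup-ps12 (2.43), Mup-ps14 (2.45) and Mup-ps13 (0.75) were higher, and Mup12 (-1.62) was lower. Mup5 lost its call in 7 of 12 alternatives, among them median-of-ratios scaling, and Mup-ps12 in 4 of 13. Mup-ps14 kept its call in all 13. Mup-ps12 and Mup-ps14 share 78.8% and 81.5% of their words with each other, so they are not separate results. In RD WT livers they had 3.85, 0.202 and 0.223 TPM and 3.32, 0.222 and 0.257 TPM. Mup7 was not called, with 15496, 11651 and 10411 TPM in RD LFPKO livers, against 6465, 11850.2 and 10299 TPM in RD WT livers. Neither was Mup21, with 553, 297 and 365 TPM, against 619, 1053 and 663 TPM. Leaving out 1 library gave 2 without RD LFPKO replicate 3 and 3 without RD LFPKO replicate 2, RD WT replicate 2 or RD WT replicate 3.

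Livers without both factors were then set against those without FoxO1 alone, which asks what PPARα loss adds where FoxO1 is absent. In RD LFPKO livers 9 members were higher and none lower than in RD LFKO livers, against 5.08% of all genes called (1.95% higher and 3.13% lower). Mup7 averaged 12519 ± 2651 TPM in RD LFPKO and 463 ± 134 TPM in RD LFKO livers (SD, n = 3 each; 4.78 ± 0.79 (SE), adjusted p = 0.000588). Mup20 averaged 17369 ± 6091 TPM in RD LFPKO and 2024 ± 559.6 TPM in RD LFKO livers (3.07 ± 0.39 (SE), adjusted p = 3.39e-05). Mup21 averaged 405 ± 133 and 52.2 ± 21.0 TPM in RD LFPKO and RD LFKO livers (2.96 ± 0.44 (SE), adjusted p = 0.000199). None of these 3 overlapped between the groups. Mup1 had 603, 516 and 389 TPM and Mup12 had 146, 184 and 114 TPM in RD LFPKO livers, above every RD LFKO and below every RD WT library. The other calls were Mup-ps19 (2.82), which shares most of its words with Mup20, Mup14 (2.27), Mup1 (1.76), Mup12 (1.46), Mup3 (0.69) and Mup22 (0.48), whose call was lost without any 1 of the 6 libraries, after median-of-ratios scaling and with the replicate block, with an adjusted p of up to 0.497 from limma. The count was 5 without RD LFPKO replicate 1, RD LFKO replicate 2 or RD LFKO replicate 3.

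Between RD LFPKO and RD LPKO livers, which differ in FoxO1 on a background without PPARα, limma called 0 members, with 3 at an unadjusted p under 0.05 and 0.123% of all genes called (0.019% higher and 0.104% lower). Mup7 had 15496, 11651 and 10411 TPM in RD LFPKO livers, against 10321, 26403 and 9277 TPM in RD LPKO livers, and Mup20 had 17638, 11149 and 23322 TPM, against 19558, 17004 and 21059 TPM. These values overlapped. The effect of PPARα loss differed by FoxO1 status for 2 members: the non-additivity term, the log2 difference LFPKO - LFKO - LPKO + WT, was 3.45 ± 0.63 (SE), adjusted p = 0.0203 for Mup21 and 3.09 ± 0.54 (SE), adjusted p = 0.0164 for Mup12, with 0.256% of all genes called (0.0758% higher and 0.18% lower). That count was 0 without RD LFKO replicate 2 or RD LPKO replicate 3 and 1 without RD LFPKO replicate 1, RD LFPKO replicate 2, RD LFKO replicate 1 or RD WT replicate 2.

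On the high-fat diet FoxO1 loss was compared in the same way, with LFKO libraries that were less alike than those on the regular diet. In HFD LFKO livers 13 members were lower and 1 higher than in HFD WT livers, against 13.5% of all genes called (12.7% higher and 0.73% lower). Median-of-ratios scaling gave 11 members lower and 0 higher, with 235 of all genes higher and 197 lower, and rescaling without Mup genes gave 11 lower and 1 higher, with 184 of all genes higher and 160 lower. Mup7 had 37746, 8551 and 892 TPM in HFD LFKO livers, against 50897, 68559.5 and 56067 TPM in HFD WT livers (-3.14 ± 0.79 (SE), adjusted p = 0.0166). No HFD LFKO library reached the HFD WT range, yet replicate 1 was 42.3 times as high as replicate 3. Mup21 had 635, 308 and 116 TPM in HFD LFKO livers, against 950.2, 1190.4 and 1062 TPM in HFD WT livers (-1.91 ± 0.44 (SE), adjusted p = 0.0120).

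Mup20 had 6976, 5016 and 1945 TPM in HFD LFKO livers, against 8904, 15728 and 12624 TPM in HFD WT livers (-1.57 ± 0.39 (SE), adjusted p = 0.0163). Mup1 had 1168, 806 and 326 TPM in HFD LFKO livers, against 2564, 5824 and 3547 TPM in HFD WT livers (-2.48 ± 0.45 (SE), adjusted p = 0.00300). Both were lower in every HFD LFKO library. The others that were lower were Mup2, Mup8, Mup11, Mup12, Mup13, Mup14, Mup16, Mup-ps8 and Mup-ps17, with log2 fold changes from -2.10 to -1.69. Mup22 and Mup3 did not pass, at 38555, 35744 and 30104 TPM in HFD LFKO livers, against 38297, 44276 and 41952 TPM in HFD WT livers, for Mup22.

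Mup10 was the member that rose, with 1191, 1677 and 1351 TPM in HFD LFKO livers, against 759.6, 318 and 338 TPM in HFD WT livers (1.68 ± 0.39 (SE), adjusted p = 0.0124), and that call was lost after median-of-ratios scaling. Its near-identical copy Mup22 holds far more TPM, and the sum of the pair was 36207 ± 4277 TPM in HFD LFKO and 41980.1 ± 2781 TPM in HFD WT livers. The number of members called was 4 without HFD LFKO replicate 3 or HFD WT replicate 2 and 9 without HFD LFKO replicate 2, and a fit on the 2 compared groups alone gave 7. Mup1, Mup12 and Mup16 kept their calls under every alternative tried. The summed hepatocyte markers were 67997 to 91403 TPM in HFD LFKO livers, against 41973 to 54938 TPM in HFD WT livers, and 1 of the 8 was called higher, as were 2 of 5 stellate cell markers; their part in the result was not tested.

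HFD LPKO livers had 1 member higher and 2 lower than HFD WT livers, against 4.73% of all genes called (3.6% higher and 1.13% lower). Mup10 had 1752, 2242 and 1113 TPM in HFD LPKO livers, against 759.6, 318 and 338 TPM in HFD WT livers (1.91 ± 0.39 (SE), adjusted p = 0.00622). Mup12 had 171, 127 and 397 TPM in HFD LPKO livers, against 524, 1140.4 and 757 TPM in HFD WT livers (-1.90 ± 0.38 (SE), adjusted p = 0.00547), and Mup1 was lower too, at 873, 572 and 1722 TPM in HFD LPKO livers (-1.98 ± 0.45 (SE), adjusted p = 0.0127). Mup10 was higher in every HFD LPKO library than in any HFD WT library, and Mup1 and Mup12 were lower in every one. Mup20 had 14706, 18971 and 17638 TPM in HFD LPKO livers and was not called. Replicate 3 of HFD LPKO stood apart, with 59211 TPM of Mup7 where the other 2 had 23465 and 21279 TPM. The count was 0 without HFD WT replicate 2, 5 without HFD WT replicate 1 and 10 without HFD LPKO replicate 3, and it was 0 with only the compared groups in the fit.

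Between HFD LFPKO and HFD WT livers limma called 0 members, with 6 at an unadjusted p under 0.05 and 3.09% of all genes called (1.62% higher and 1.47% lower). Mup7 had 66608, 68112 and 46799.6 TPM in HFD LFPKO livers, against 50897, 68559.5 and 56067 TPM in HFD WT livers. Mup1 and Mup12 had lower values in HFD LFPKO livers, Mup1 with 2244, 2104 and 1142 TPM, against 2564, 5824 and 3547 TPM in HFD WT livers (adjusted p = 0.250). Mup12 had 421, 417 and 345 TPM in HFD LFPKO livers, against 524, 1140.4 and 757 TPM in HFD WT livers. The number called was 1 without HFD LFPKO replicate 2, HFD LFPKO replicate 3, HFD WT replicate 1 or HFD WT replicate 2. Between HFD LFPKO and HFD LPKO livers limma also called 0 members, with 8 at an unadjusted p under 0.05 and 0.351% of all genes called (0.0663% higher and 0.284% lower), and the number was 4 without HFD LPKO replicate 3.

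Compared with HFD LFKO livers, HFD LFPKO livers had 6 members higher and none lower, against 10.6% of all genes called (1.85% higher and 8.74% lower). Mup7 averaged 60506 ± 11894 TPM in HFD LFPKO and 15729.9 ± 19448 TPM in HFD LFKO livers (3.17 ± 0.79 (SE), adjusted p = 0.0123). Mup21 had 2068, 1578 and 1181 TPM in HFD LFPKO livers, against 635, 308 and 116 TPM in HFD LFKO livers (2.47 ± 0.44 (SE), adjusted p = 0.000870). Mup20 had 13327, 19351 and 7085 TPM in HFD LFPKO livers, against 6976, 5016 and 1945 TPM in HFD LFKO livers (1.58 ± 0.39 (SE), adjusted p = 0.0119), groups that did not overlap. All-gene calls were 468 higher and 642 lower after median-of-ratios scaling. Mup14 (1.82), Mup-ps19 (1.5) and Mup-ps20 (3.30) were also higher. On the regular diet Mup7, Mup14, Mup20, Mup21 and Mup-ps19 were called higher in LFPKO than in LFKO livers too. Of 13 alternatives, the high-fat diet call was lost in 7 for Mup-ps19, 5 for Mup14 and 4 for Mup20. It was lost in 2 for Mup7 and 1 for Mup21. Mup-ps19 shares 94.1% of its words with Mup20, so its calls are not separate from those of Mup20. The high-fat diet count was 2 without HFD LFKO replicate 3, 3 without HFD LFPKO replicate 1 or HFD LFPKO replicate 2 and 11 without HFD LFKO replicate 1, and with only the compared groups in the fit it was 1.

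For 13 members the effect of PPARα loss on the high-fat diet differed by FoxO1 status, against 11.2% of all genes called (0.663% higher and 10.5% lower). The non-additivity term was 4.08 ± 1.12 (SE), adjusted p = 0.0247 for Mup7, 3.36 ± 0.63 (SE), adjusted p = 0.00354 for Mup1 and 2.90 ± 0.54 (SE), adjusted p = 0.00332 for Mup12. It was also positive for Mup2, Mup8, Mup11, Mup13, Mup14, Mup16, Mup21, Mup-ps13 and Mup-ps17, and negative for Mup10 (-2.18), whose call was lost after either rescaling. The calls of Mup8, after either rescaling, and of Mup21, after median-of-ratios scaling, were lost too. All-gene calls were 70 positive and 1109 negative, against 230 positive and 397 negative after median-of-ratios scaling. The count was 5 without HFD WT replicate 2, 6 without HFD LFPKO replicate 1 or HFD LPKO replicate 2, 7 without HFD LPKO replicate 1 and 8 without HFD LFKO replicate 2 or HFD LFKO replicate 3, and with only the compared groups in the fit it was 2.

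**Figure D5:**
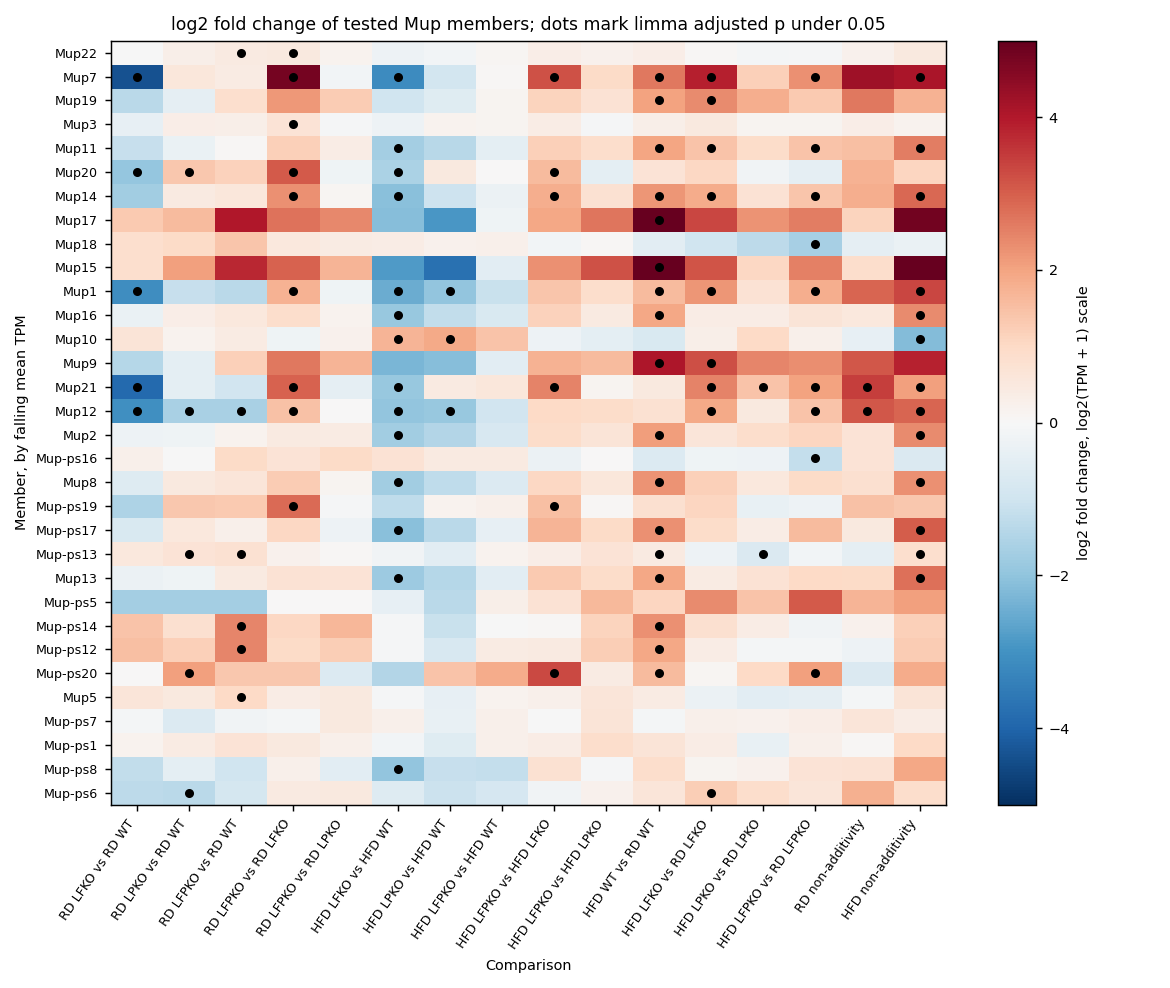
log2 fold change on the log2(TPM + 1) scale (colour, capped at 5 in either direction) of the 32 tested members (rows) in 14 comparisons of 2 groups and the non-additivity terms on each diet (columns). Black dots mark limma adjusted p under 0.05: the RD LFPKO vs RD LFKO column holds 9 dots, all red, and the HFD WT vs RD WT column holds 17, all red.

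The diets were compared within each genotype, first in WT livers. In HFD WT livers 17 members were higher and none lower than in RD WT livers, against 30.8% of all genes called (1.05% higher and 29.8% lower). Many of these members share most of their 31-base words with other members, so the 17 calls are not separate results. The median log2 fold change was 1.33 over the 32 members and -0.29 over all genes. Scaling by median-of-ratios size factors moved the all-gene median by 0.33, and the member median was then 1.53. Under that scaling 17 members were again higher and none lower, with 468 of all genes higher and 372 lower in place of 111 and 3139, and rescaling without Mup genes gave 17 members higher, with 287 of all genes higher and 451 lower. Mup7 had 50897, 68559.5 and 56067 TPM in HFD WT livers, against 6465, 11850.2 and 10299 TPM in RD WT livers (2.65 ± 0.79 (SE), adjusted p = 0.0195), without overlap. Mup11 had 23676, 37709 and 30423 TPM in HFD WT livers, against 8918, 6593 and 7782 TPM in RD WT livers (1.96 ± 0.42 (SE), adjusted p = 0.00323), and Mup14 averaged 14116 ± 4257 TPM, against 2961 ± 466 TPM (2.23 ± 0.51 (SE), adjusted p = 0.00517).

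The largest fold changes with diet belonged to Mup17 and Mup15, which lie on either side of Mup16 in the central part of the cluster. Mup17 had 6966, 18765 and 9606 TPM in HFD WT livers, against 1269, 17.8 and 40.2 TPM in RD WT livers (6.76 ± 1.24 (SE), adjusted p = 0.00135). Mup15 had 4151, 11379 and 5929 TPM in HFD WT livers, against 630.3, 9.48 and 28.0 TPM in RD WT livers (6.83 ± 1.4 (SE), adjusted p = 0.00271). Replicate 1 of RD WT lay far above replicates 2 and 3 for both, yet below every HFD WT library. Divergent coding genes with sequence of their own did not pass: Mup20 (8904, 15728 and 12624 TPM in HFD WT livers, against 5720.2, 7799 and 9511 TPM in RD WT livers), Mup3 (means of 13899.9 ± 1946 and 11159.7 ± 609 TPM in HFD WT and RD WT livers), Mup21 (means of 1068 ± 120.2 and 779 ± 239 TPM) and Mup5. Mup1, with 29.8% of the words in its 4 annotated transcripts unique, did rise (1.58 ± 0.45 (SE), adjusted p = 0.0156). The pseudogenes Mup-ps20 (1.59), Mup-ps17 (2.27) and Mup-ps13 (0.46) rose too, with 84.4%, 25.5% and 27.8% of their words unique. The Mup-ps20 call was lost in 8 of 13 alternatives, among them either rescaling, and Mup-ps20 reached at most 0.598 TPM in RD WT livers. Mup-ps13 also lost its call in 8 of 13, among them without any 1 of the 6 libraries. The Mup-ps17 call was lost only without HFD WT replicate 2, and the Mup1 call without that library or RD WT replicate 3. The count of members called was 10 without HFD WT replicate 2 and 11 without RD WT replicate 3.

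Within the knockout genotypes the diet comparison gave fewer calls. HFD LFKO livers had 9 members higher and none lower than RD LFKO livers, against 9.45% of all genes called (1.11% higher and 8.34% lower): Mup7 (3.88), Mup9 (3.22), Mup21 (2.49), Mup19 (2.36), Mup1 (2.20), Mup12 (1.89), Mup14 (1.85), Mup11 (1.42) and Mup-ps6 (1.24). That count was 4 without HFD LFKO replicate 1, HFD LFKO replicate 2 or RD LFKO replicate 2, 5 without RD LFKO replicate 3 and 14 without HFD LFKO replicate 3. In HFD LPKO against RD LPKO livers only Mup21 was higher (2403, 1157 and 1059 TPM in HFD LPKO livers, against 417, 593 and 623 TPM in RD LPKO livers, 1.42 ± 0.44 (SE), adjusted p = 0.0340) and Mup-ps13 lower (-0.73), against 18.1% of all genes called (0.777% higher and 17.3% lower), and the count was 1 without HFD LPKO replicate 1, HFD LPKO replicate 3, RD LPKO replicate 1 or RD LPKO replicate 3. The Mup21 call was lost without HFD LPKO replicate 1 or 3 or any 1 RD LPKO library. The Mup-ps13 fall was lost after median-of-ratios scaling and with only the compared groups in the fit.

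In LFPKO livers the diet raised 7 members and lowered 2, against 26.3% of all genes called (1.35% higher and 24.9% lower). Mup7 (2.27), Mup-ps20 (2.07), Mup21 (2.0), Mup1 (1.82), Mup12 (1.43), Mup11 (1.41) and Mup14 (1.39) were higher in HFD LFPKO than in RD LFPKO livers. Mup18 had 2426, 1034 and 1523 TPM in HFD LFPKO livers, against 4332, 5008 and 5582 TPM in RD LFPKO livers (-1.66 ± 0.47 (SE), adjusted p = 0.0132), and all 3 HFD libraries were lower. Mup-ps16 was lower as well (-1.17). Both falls and the rises of Mup7 and Mup14 were lost after median-of-ratios scaling, which left 5 calls, with 500 of all genes higher and 884 lower, and the count was 5 without HFD LFPKO replicate 1 or RD LFPKO replicate 2.

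Whether a deletion acted differently on the 2 diets was tested by the interaction of genotype and diet. Limma called 0 members for LFKO, LPKO and LFPKO, where 6, 13 and 7 members had an unadjusted p under 0.05 and 0.00948%, 0.171% and 0.0284% of all genes were called. Of all genes 0.114% were called higher and 0.0569% lower for LPKO. The lowest adjusted p of a member was 0.258 for LFKO, 0.0511 for LPKO and 0.232 for LFPKO. Leaving out a library gave 2 without HFD LPKO replicate 3 for LPKO and 1 without RD WT replicate 1 for LFPKO. For LPKO 1 member was called, as lower, with a pseudocount of 0.1, with a filter at a mean of 5 TPM and after either scaling.

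Among the 10 comparisons of genotypes on 1 diet, Mup12 was called in 6, Mup20 in 5, Mup1, Mup7 and Mup21 in 4, and Mup14 in 3. Many of these comparisons share control libraries, so their calls are not independent of each other. In any of the 19 comparisons 29 of the 32 tested members were called at least once, and Mup-ps1, Mup-ps5 and Mup-ps7 never were. Mup-ps5, annotated over 99 bases, was at 0 in 15 of the 24 libraries and at up to 39.1 TPM in the others.

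Some members moved together between replicates of a group. In RD WT livers Mup15, Mup17, Mup9, Mup19, Mup-ps12 and Mup-ps14 were each higher in replicate 1 than in replicates 2 and 3, with Mup19 at 31639, 4825 and 5701 TPM and Mup9 at 530.1, 80.7 and 71.3 TPM, while Mup1 (1293, 1256 and 1230.3 TPM) and Mup12 (439, 444 and 461 TPM) stayed level and Mup7 (6465, 11850.2 and 10299 TPM) was lowest in replicate 1. The ratio of the highest to the lowest RD WT library reached 71.4 for Mup17 and 66.5 for Mup15. In HFD LPKO livers Mup15 (149, 133 and 5995 TPM) and Mup17 (600.5, 593 and 8422 TPM) were high in replicate 3 alone. Among RD LPKO libraries Mup15 (105, 1035 and 128 TPM) and Mup19 (4019, 14891 and 5675 TPM) were highest in replicate 2. Mup15 and Mup19 have no unique 31-base word, which leaves the size of these differences between replicates uncertain for each gene alone, although the 14-gene sum differed too, at 96488, 57623 and 63362 TPM in the RD WT libraries.

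Among the pseudogenes, Mup-ps19, 94.1% of whose 31-base words occur in Mup20, had 46.9, 54.3 and 109 TPM in RD LFPKO livers, against 11, 10.5 and 5.02 TPM in RD LFKO livers (2.82 ± 0.47 (SE), adjusted p = 0.000588), and 5.93% of its words are unique. Mup-ps20, with 84.4% of its words unique, had 43.3, 10.9 and 5.86 TPM in HFD LFPKO livers, against 0.871, 0.757 and 0.155 TPM in HFD LFKO livers (3.30 ± 0.57 (SE), adjusted p = 0.000534), with no overlap. On the regular diet Mup-ps20 had 4.41, 4.19 and 6.30 TPM in RD LPKO livers, against 0.335, 0.598 and 0.349 TPM in RD WT livers (2.05 ± 0.57 (SE), adjusted p = 0.0349). That regular diet call was lost in 7 of 13 alternatives, among them no filter and leaving out any single library of either group. Mup-ps16, the pseudogene with the highest mean at 61.6 TPM, was called in 1 comparison only, the diet comparison of LFPKO livers. Mup-ps3 and Mup-ps11 share all their 31-base words and had identical values in all 24 libraries.

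Genes known to share the sex-biased growth hormone control of the Mup cluster were followed as lists. Of 15 genes of growth hormone signalling tested, limma called 0 in RD LFKO against RD WT livers, with 1 at an unadjusted p under 0.05. In HFD LFKO against HFD WT livers 4 were higher and none lower: the prolactin receptor Prlr (1.67), the IGF-binding protein Igfbp3 (0.94), Igf1 (0.42) and the growth hormone receptor Ghr (0.35, log2 fold changes), where 12.7% of all genes were called higher and 0.73% lower. Prlr and Igfbp3 kept that call after either rescaling, a check of the lists that was chosen after seeing the data, and Igf1 and Ghr did not. Of 13 transcription factors and coregulators known in Mup control, 2 were higher in HFD LFKO than in HFD WT livers, Trim24 (1.0) and Rora (0.38), a share near that of all genes, and neither kept the call after either rescaling. In that list limma called 0 in RD LFKO against RD WT livers, with 2 at an unadjusted p under 0.05.

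Of 16 other male-biased liver genes, 5 were lower and 1 higher in RD LFKO than in RD WT livers, among them Cyp2d9 (-1.08), the fatty acid elongase Elovl3 (-1.80) and the oxysterol hydroxylase Cyp7b1 (-2.78), with the transporter Slco1a1 higher (1.04), where 1.07% of all genes were called higher and 0.597% lower. In HFD LFKO against HFD WT livers 6 were lower and none higher, where 0.73% of all genes were called lower, with Gstp1 (-1.52), the complement gene C6 (-1.74), Serpina1e (-1.35) and Cyp7b1 (-1.82) having the smallest adjusted p. In LFPKO against LFKO livers 8 were higher on the high-fat diet and 5 on the regular diet, and none was lower, where 1.85% and 1.95% of all genes were called higher on the high-fat and the regular diet. Either rescaling left 6 lower in HFD LFKO livers, and median-of-ratios scaling left 3 higher in RD LFPKO than in RD LFKO livers. C6 had the smallest adjusted p in the comparison of LFPKO and LFKO livers on both diets, with log2 fold changes of 1.96 on the high-fat and 2.51 on the regular diet. The median was -0.84 for the 16 male-biased genes in RD LFKO against RD WT livers, against 0.03 over all genes. Of 16 female-biased genes 6 reached the mean of 1 TPM, some of them only through groups where they were high, so they are described without a count of calls. Cyp2b9 had 122, 80.2 and 50.1 TPM in RD LFKO livers, against 1.5, 1.36 and 2.85 TPM in RD WT livers, and 8.69, 50.7 and 153 TPM in HFD LFKO livers, against 2.13, 0.138 and 0.440 TPM in HFD WT livers. It averaged at most 0.926 TPM in the LFPKO and LPKO groups. Cyp2a4 had 233, 232 and 227 TPM in RD LFKO livers, against 0.114, 0.198 and 0.202 TPM in RD WT livers, and averaged 269 TPM in RD LFPKO livers. Cyp2c40, Cyp2c69, Acot3 and Abcd2 also reached a mean of 1 TPM and are not described singly. Summed over the 16 genes, TPM was 488 to 640 in RD LFKO and 24.4 to 38.8 in RD WT livers. It was 79.2 to 163 in RD LPKO livers and spread from 84.6 to 560 among the RD LFPKO libraries. On the high-fat diet it was 43.8 to 366 TPM in LFKO and 2.69 to 7.42 TPM in WT livers. In HFD LPKO and HFD LFPKO livers it was 9.70 to 110 and 2.33 to 93.9 TPM. A further list held other lipocalin genes and the fatty acid-binding protein gene Fabp1, which is not a lipocalin. Of its 9 genes tested, the acute-phase gene Orm3 (-0.98) was the 1 called in RD LFKO against RD WT livers.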

How the data were processed

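The table holds 1 TPM value per gene and library for 24 liver libraries (stranded mRNA kit, per the labels), deposited by the authors; kallisto and the builds mm10 and GRCm38 are named in the submitters' processing notes, and neither source names the annotation release or word length. TPM keeps no read depth, so depth is unknown and no counting interval can be given. No batch is labelled. Levels were tested as log2(TPM + 1) with limma 3.58.1 in R 4.3.3 (trended variance, 8 group means over all 24 libraries, two-sided, Benjamini-Hochberg adjustment over 10551 genes with a mean of at least 1 TPM, call at adjusted p under 0.05), and the code was tested on simulated data. Fold changes are on that scale and understate changes of low genes. 1 line without a gene name, 0.0104% to 0.0250% of a library's TPM, was left out. The Mup share divides the Mup TPM by the TPM of all named genes.

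Word uniqueness and identity came from GENCODE M21 transcripts and promoters from RefSeq (GRCm38.p6), read with Python 3.11.15 and pandas 2.3.3. Every tested member could be named; values in every library were given for the most abundant members and those called in at least 4 of 10 genotype comparisons, and up to 4 genes per list by smallest adjusted p. Members and lists were chosen with earlier results of these data known. Alternatives were another pseudocount, filter and scaling, a fit on the compared groups, replicate number as a block and fits without single libraries.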

Additional observations from a re-analysis of the deposited data

Results flagged for a closer look

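For 15 member and diet combinations a test of the difference itself called the effect of PPARα loss different between livers with and without FoxO1 (limma on log2(TPM + 1), adjusted p under 0.05 over all genes). The value is the log2 difference LFPKO - LFKO - LPKO + WT on 1 diet. On the regular diet it was 3.45 for Mup21 and 3.09 for Mup12, against 0.256% of all genes called. On the high-fat diet, where 11.2% of all genes were called, it was 4.08 for Mup7, 3.36 for Mup1, 3.04 for Mup-ps17, 2.90 for Mup12, 2.86 for Mup14, 2.74 for Mup13 and 2.55 for Mup11. It was 2.37 for Mup2, 2.35 for Mup16, 2.29 for Mup8, 2.04 for Mup21, 0.85 for Mup-ps13 and -2.18 for Mup10. Mup1 and Mup12 kept the call on the high-fat diet under every alternative tried.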

How the results depend on the processing

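All 100 calls of a member in a comparison kept their sign under every alternative, 37 were kept without any 1 library, and 31 were kept under every alternative run. Of the 31, 10 belong to HFD WT against RD WT livers, 4 to RD LFKO against RD WT livers (Mup1, Mup7, Mup12 and Mup21) and 4 to RD LFPKO against RD LFKO livers (Mup7, Mup20, Mup21 and Mup-ps19). Calls that were lost numbered 43 with only the compared groups in the fit, 33 with no filter on low values, 18 after median-of-ratios scaling, 10 after rescaling to all genes other than Mup and 5 with a pseudocount of 0.1. TPM gives no depth, so precision at low levels is unknown, and near-identical transcripts limit the division of reads among 14 genes.

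The counts of called members that moved by over 1.5 times were as follows. With only the compared groups in the fit there were 8 for RD LFKO against RD WT, 7 for HFD LFKO against HFD WT, 0 for HFD LPKO against HFD WT, 1 for HFD LFPKO against HFD LFKO, 3 for HFD LFKO against RD LFKO and 4 for HFD LPKO against RD LPKO, with 4 for the non-additivity on the regular diet and 2 on the high-fat diet. That alternative has fewer residual degrees of freedom. With no filter there were 3 for RD LPKO against RD WT, 4 for HFD LFKO against RD LFKO and 1 for HFD LPKO against RD LPKO, with 1 and 8 for the non-additivity on the regular and the high-fat diet, where more genes entered the adjustment. A pseudocount of 0.1 gave 3 for RD LPKO against RD WT, and a filter at a mean of 5 TPM gave 6 for HFD LPKO against HFD WT. Median-of-ratios scaling gave 1 for HFD LPKO against RD LPKO and 5 for HFD LFPKO against RD LFPKO, and rescaling without Mup genes gave 1 for HFD LFPKO against HFD WT. For the interaction of LPKO and diet 1 member was called with the smaller pseudocount, with the filter at 5 TPM and after either scaling. The cause was not tested for these scalings, pseudocounts and the stricter filter. As a ratio to the TPM of all other genes, the Mup share was 32.2% in HFD LFPKO, 34.0% in HFD WT and 15.2% in RD LFPKO livers.

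Leaving out each library in turn gave 4 to 6 calls for RD LFKO against RD WT, 0 to 2 for RD LPKO against RD WT, 2 to 9 for RD LFPKO against RD WT and 5 to 8 for RD LFPKO against RD LFKO. It gave 4 to 16 for HFD LFKO against HFD WT, 0 to 10 for HFD LPKO against HFD WT, 0 to 1 for HFD LFPKO against HFD WT, 2 to 11 for HFD LFPKO against HFD LFKO and 0 to 4 for HFD LFPKO against HFD LPKO. For high-fat against regular diet the ranges were 10 to 16 in WT, 4 to 14 in LFKO, 1 to 3 in LPKO and 5 to 10 in LFPKO livers. The interactions of genotype and diet ranged from 0 to 2 and the non-additivity from 0 to 3 on the regular and 5 to 17 on the high-fat diet. Median-of-ratios scaling moved the median log2 fold change of all genes by -0.23 for HFD LFKO against HFD WT and by 0.26 for the non-additivity on the high-fat diet.

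The replicate numbers share no stated litter, batch or day. Over 84 pairs of same-numbered libraries of different groups, the correlation of deviations from the group means ran from -0.230 to 0.387 with a median of -0.00437, and in 0 of 28 group pairs were all above 0.1, so the numbers were not taken to pair libraries. With the replicate block in the fit 1 member was called for HFD LFPKO against HFD WT livers, and 8 of the 100 calls were lost.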
